A study of Mus musculus with 6 samples.

Results

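Lao1, Sftpd, Lpo, Pglyrp1 and Camp encode proteins that act against bacteria, and their transcripts were followed through the mammary cycle in the mammary glands of 6 female mice. The members were all probe sets whose only gene symbol is 1 of these 5 names, which gave 5 probe sets, 1 per gene, of 34945 probe sets with 1 symbol. The set was chosen by name, and Lao1 and Sftpd were chosen by their measured rise with stage on these arrays, so their differences between stages are described here without a test. Of the 5 genes, 4 passed the filter on low signals (a mean log2 value of at least 7.715), and Camp did not. Signals of Lao1, Sftpd and Lpo were highest in the lactating glands, while those of Camp lay in the range of silent genes on every array, so that Camp could not be seen as a milk protein gene here.

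Milk carries several enzymes and lectins that hold bacteria in check in the gland and in the gut of the young. L-amino acid oxidase, the product of Lao1, breaks down free amino acids and releases hydrogen peroxide, and lactoperoxidase, the product of Lpo, uses hydrogen peroxide to turn thiocyanate into a toxic oxidant. Surfactant protein D (Sftpd) is a collectin, a soluble lectin that binds sugars on microbes and is best known from the lung. Pglyrp1 binds bacterial peptidoglycan and Camp encodes a cathelicidin, and both are known from the granules of neutrophils.

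Each array held RNA from 1 mouse on a mixed 129/FVB/Black Swiss background, and each stage was represented by 1 Brca1 mutant and 1 control, 3 pairs in all. The virgin pair was 6 months old, with the genotypes Brca1 D11/D11;p53+/- in the mutant and Brca1 D+/+;p53+/- in the control. The pair on day 1 of lactation had the same genotypes and was 2 months old. The pair on day 16.5 of pregnancy was 5 months old and of another make, with Brca1 co/co/MMTV-Cre in the mutant and Brca1 +/co/MMTV-Cre in the control. Cre driven by the mouse mammary tumour virus promoter is active mainly in mammary epithelium and not in every cell of the gland. The series' design text gives every mutant as D11/D11 with p53+/-, and the sample labels were followed for the pregnant pair. The controls of the virgin and lactating pairs thus shared the p53+/- state with their mutants, and the pregnant control shared Cre and 1 conditional Brca1 allele with its mutant. The 4 virgin and pregnant arrays bear 1 array date and both lactating arrays another, so that lactation cannot be told apart from array date and age, and pregnancy cannot be told apart from genotype and age.

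The authors deposited MAS5 signals on a linear scale, already scaled so that each array had a trimmed mean of 500. The median signal was 211.2 and 230.8 on the lactating arrays and 119.9 to 157.8 on the others. Virgin arrays had actin 3'/5' ratios, a sign of RNA breakdown when high, of 2.03 and 2.74, against 1.37 to 1.91 on the others. Background was gauged from 20 Y-linked probe sets, silent in females, whose median signal was 33.6 and whose 95th percentile was 260.4. Signals under 260.4 are therefore read as no more than background, and a fold against them as a lower bound. Brca1 itself read 137.0 and 486.5 in the virgin, 158.7 and 288.0 in the pregnant and 237.6 and 156.7 in the lactating glands, control first in each pair. By the level of 260.4, Brca1 exceeded background only in the virgin mutant and, narrowly, in the pregnant mutant. Whether its probes lie in the deleted part of the gene was not analysed here, so these values do not check the labels. The defining markers of the secretory epithelium of the gland were present, with the milk protein gene Csn2 at 30621 to 44423 and the epithelial gene Epcam at 8457 to 15004 on all arrays.

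Lao1 went from background in virgin glands to a mean signal of 30125 by day 16.5 of pregnancy and 46830 on day 1 of lactation. Its signal was 222.0 in the virgin control, 251.9 in the virgin mutant, 34729 in the pregnant control, 25520 in the pregnant mutant, 48389 in the lactating control and 45271 in the lactating mutant. Both virgin signals were below the background level, both other stages lay far above it, and no stages overlapped. From virgin to pregnant glands Lao1 was at least 114-fold higher, and on the log2 scale (log2 of signal plus 52.1) the difference was 6.69 ± 0.21 (SE, n = 2 arrays per stage). From pregnant to lactating glands the log2 difference was 0.65 ± 0.21 (SE), and the lactating signals lay above both pregnant signals, the lower lactating value at 1.30 times the higher pregnant one. These signals are near the top of the scale, where the highest signal of any probe set was 44905 to 63891 by array, and whether this compresses the difference was not tested.

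Sftpd rose in both steps, and the larger part of its final signal came after day 16.5 of pregnancy. Its signal was 212.5 in the virgin control, 456.7 in the virgin mutant, 5791 in the pregnant control, 2685 in the pregnant mutant, 27670 in the lactating control and 28034 in the lactating mutant. The 3 stages did not overlap, and the lactating pair was the most alike. Over all tested genes, 27.6% were higher without overlap in pregnant than in virgin glands, 33.4% in lactating than in pregnant and 35.1% in lactating than in virgin glands, and nothing is read from these shares for the chosen genes. The log2 difference was 3.45 ± 0.41 from virgin to pregnant and 2.80 ± 0.41 from pregnant to lactating glands (SE, n = 2 arrays per stage). The lactating mean was 6.57 times the pregnant mean for Sftpd and 1.55 times for Lao1. Mean lactating signals were at least 180-fold above the virgin level for Lao1 and at least 80.8-fold for Sftpd.

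Lpo followed the same order of stages at lower signals. Its signal was 11.1 in the virgin control, 87.0 in the virgin mutant, 1190 in the pregnant control, 447.0 in the pregnant mutant, 2809 in the lactating control and 1925 in the lactating mutant. Both virgin signals were at background, both other stages were above it, and no stages overlapped, as for Lao1 and Sftpd. Lpo was at least 2.80-fold higher in pregnant than in virgin glands, with mean signals of 818.4 and 49.0 (limma adjusted p = 0.00964, n = 2 arrays per stage). The fitted log2 difference of 3.07 ± 0.50 (SE) is no bound, since it and its p rest on virgin signals at background, and Lpo passed the filter only through the stages where it was high. Over all 11495 tested genes, 6.45% were called higher in that comparison. In lactating glands, with a mean of 2367, it was at least 8.93-fold above the virgin level (limma adjusted p = 0.000452, fitted log2 difference 4.66 ± 0.50 with the same limit), where 23.7% of tested genes were called higher. From pregnant to lactating glands Lpo rose by 1.59 ± 0.50 (SE; limma adjusted p = 0.0457), where 14.9% of tested genes were called higher. The latter call was lost when arrays were centred on their medians (1.18, limma adjusted p = 0.0678) and without the pregnant mutant (0.79, limma adjusted p = 0.322), the lactating control (1.37, 0.141) or the lactating mutant (1.82, 0.0517). The virgin to pregnant call was lost without the pregnant control (2.26, limma adjusted p = 0.0577). In tissue RNA of this kind, fewer cells of a type and less RNA per cell cannot be told apart.

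**Figure D1:**
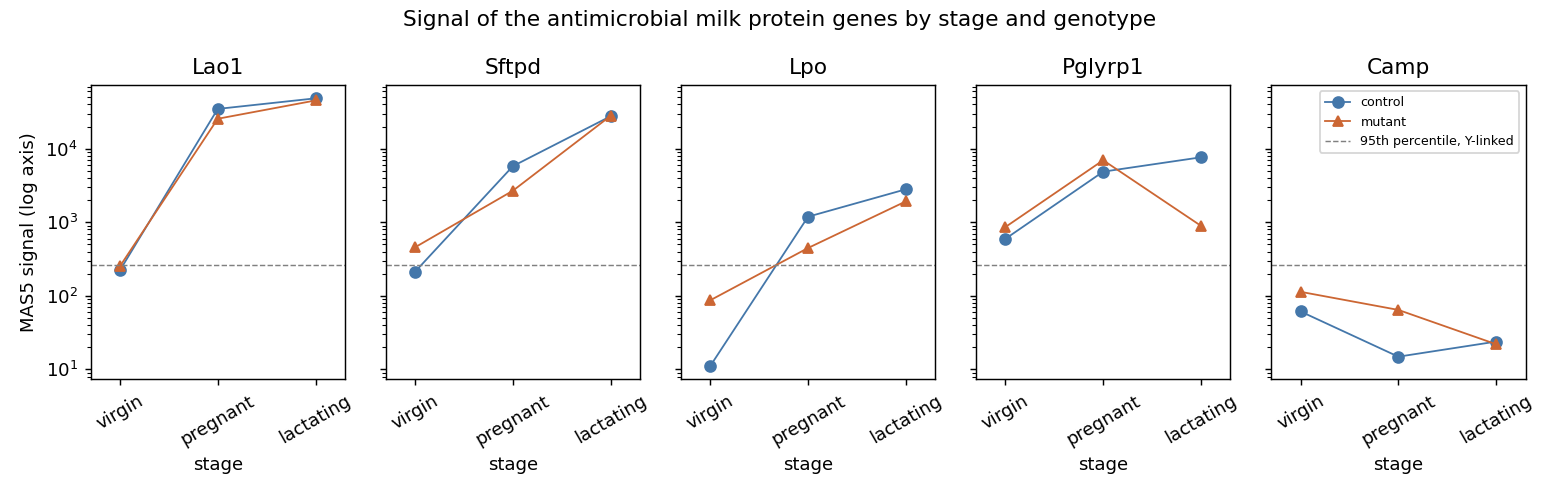
MAS5 signal (log axis) of each gene by stage, with 1 point per mouse, circles for controls and triangles for mutants; lines join mice of 1 genotype class and the dashed line is the 95th percentile of Y-linked probe sets, 260.4. Lao1, Sftpd and Lpo climb from the virgin to the lactating arrays, Pglyrp1 parts in the lactating pair at 7644 and 893.9, and Camp stays below the dashed line.

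Pglyrp1 was higher in the pregnant than in the virgin glands, and the 2 lactating mice differed more than any other pair. Its signal was 594.8 in the virgin control, 860.8 in the virgin mutant, 4875 in the pregnant control, 6969 in the pregnant mutant, 7644 in the lactating control and 893.9 in the lactating mutant. The lactating control lay above both pregnant arrays and the lactating mutant just above the virgin mutant. From virgin to pregnant glands Pglyrp1 rose by 2.94 ± 0.76 on the log2 scale (SE, n = 2 arrays per stage; limma adjusted p = 0.0416). Within the 4 arrays of 1 date the same difference had a limma adjusted p of 3.01e-05, with an SE of 0.18. That SE rests on nearly equal mutant minus control differences in the virgin and pregnant pairs, at 0.50 and 0.51. Stage is still not separable from genotype and age within that date. The call was lost with quantile normalization (2.87, limma adjusted p = 0.0804), with no filter (0.0647), with the mean of probe sets (0.0643), with no variance trend (0.0621) and without the virgin control, the pregnant control or the pregnant mutant (0.289, 0.0549 and 0.190). From pregnant to lactating glands the difference was -1.12 ± 0.76 (SE; limma adjusted p = 0.286). Without the lactating control it was -2.89 (limma adjusted p = 0.000468), and without the lactating mutant 0.64 (limma adjusted p = 0.0647), so that each direction rests on a single lactating mouse. From virgin to lactating glands the difference was 1.81 ± 0.76 (SE; limma adjusted p = 0.0802), 3.58 without the lactating mutant (limma adjusted p = 2.51e-05) and 0.048 without the lactating control (0.882). It was also called without the virgin mutant (2.69, limma adjusted p = 0.0445), the pregnant control (0.0442) or the pregnant mutant (0.0445).

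Camp stayed dark. Its signal was 61.4 in the virgin control, 113.5 in the virgin mutant, 14.9 in the pregnant control, 64.4 in the pregnant mutant, 23.9 in the lactating control and 22.0 in the lactating mutant. All 6 values lay under the background level of 260.4, so no difference in Camp was measurable on these arrays and no fold is given.

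**Figure D2:**
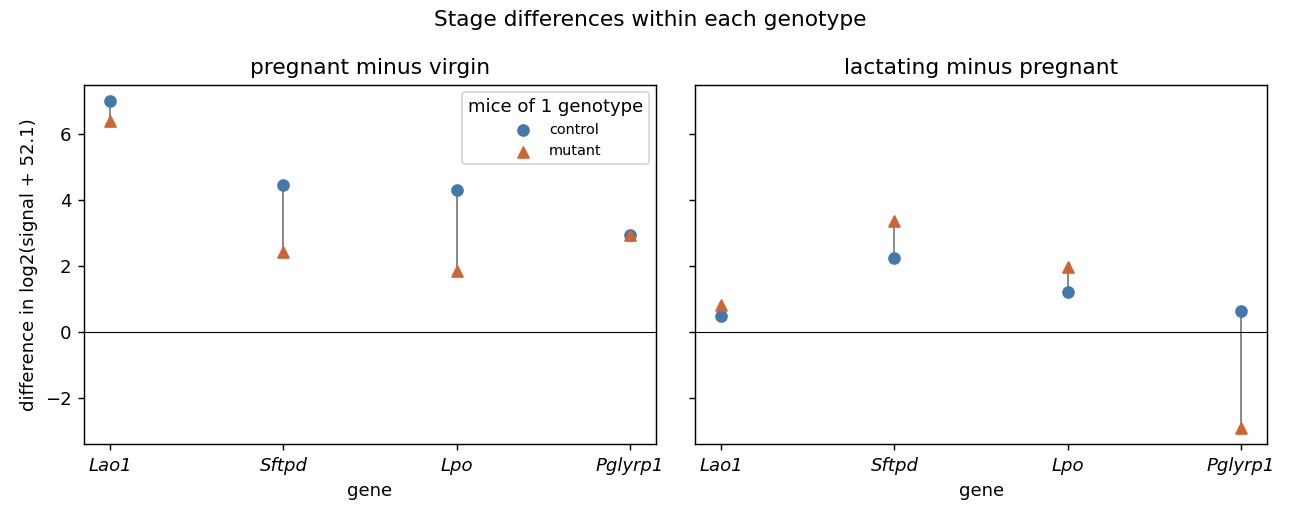
Differences in log2(signal + 52.1) between stages for the 4 genes above the filter, computed separately for the control mice (circles) and the mutant mice (triangles), with a grey line joining both. From virgin to pregnant, Lao1 differed by 6.99 in controls and 6.39 in mutants and Sftpd by 4.46 and 2.43; virgin signals of Lao1 and Lpo and of the Sftpd control were at background. From pregnant to lactating, Pglyrp1 differed by 0.64 in controls and -2.89 in mutants.

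Promoters are shown for Lao1 and Lpo, which rose together, and for Pglyrp1, which parted in the lactating pair. Each is the 250 bases before the start of the gene in RefSeq, GRCm38.p6, 5' to 3' on the strand of the gene, and the RefSeq promoter table held 4 of the 5 members; capitals mark motif matches. The Lao1 window is chr4:118961717-118961966 (plus strand), that of Lpo chr11:87826115-87826364 (minus strand) and that of Pglyrp1 chr7:18884440-18884689 (plus strand).
Lao1: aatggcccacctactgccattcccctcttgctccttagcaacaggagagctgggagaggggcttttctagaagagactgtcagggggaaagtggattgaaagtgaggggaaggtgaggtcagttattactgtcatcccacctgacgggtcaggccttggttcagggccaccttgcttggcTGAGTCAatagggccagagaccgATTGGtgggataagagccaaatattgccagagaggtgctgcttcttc
Lpo: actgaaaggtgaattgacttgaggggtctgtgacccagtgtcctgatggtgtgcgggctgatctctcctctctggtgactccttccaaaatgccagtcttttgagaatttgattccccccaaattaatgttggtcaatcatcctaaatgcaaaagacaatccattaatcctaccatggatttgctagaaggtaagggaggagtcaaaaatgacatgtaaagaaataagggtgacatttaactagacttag
Pglyrp1: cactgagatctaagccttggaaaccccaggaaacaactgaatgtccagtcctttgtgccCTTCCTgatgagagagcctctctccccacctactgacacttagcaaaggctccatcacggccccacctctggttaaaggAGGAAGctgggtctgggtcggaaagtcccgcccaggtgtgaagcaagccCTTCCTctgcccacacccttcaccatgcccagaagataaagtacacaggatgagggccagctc
The motifs were searched on both strands. The Stat5 site TTCNNNGAA, bound by the factor that relays prolactin signals, stands in 7.01% of 32817 RefSeq promoter windows of this length, the C/EBP site TTGCNNAA in 9.57%, the nuclear factor 1 half-site TTGGCA in 12.3%, the TATA box TATAAA in 12.4% and the ETS core AGGAAG in 29.5%. None of these 5 stood in the Lao1 or Lpo window, which says only that these letters are not there. The Pglyrp1 window held 3 ETS cores, starting 191, 112 and 63 bases before the gene. The CCAAT box (CCAAT, in 33.8% of windows) and the AP-1 site (TGANTCA, in 6.75%) were added after the sequences were read. The Lao1 window held 1 of each, starting 47 and 70 bases before the gene, the Lpo and Pglyrp1 windows held neither, and no match overlapped another.

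Between Brca1 mutant and control no member was called, in a limma fit with the stage as a block (n = 3 pairs), where 0 of 11495 genes passed (0.00%). The fit pools the D11/D11;p53+/- mutants of the virgin and lactating pairs with the conditional mutant of the pregnant pair. Its ratios are thus averages over unlike genotypes, and the pairs are not replicates of a single genotype contrast. The log2 ratio was -0.13 ± 0.17 for Lao1 (SE; limma adjusted p = 0.955), -0.04 ± 0.34 for Sftpd (0.987), -0.24 ± 0.41 for Lpo (0.967) and -0.67 ± 0.62 for Pglyrp1 (0.943). For Lao1 and Lpo the fit includes a virgin pair with both signals at background, from which no direction is read. In the virgin pair the mutant was higher for Sftpd, at 456.7 against a control signal at background, and for Pglyrp1 by 0.50. In the pregnant pair the mutant was lower for Lao1 by 0.44 (log2 difference -0.44), for Sftpd (-1.09) and for Lpo (-1.31), and higher for Pglyrp1 (0.51). Of 14 tested luminal secretory markers, only 1 was higher in this pregnant mutant than in its control, and their median difference was -0.44. The same markers had medians of 0.21 between the virgin mice and 0.11 between the lactating mice. Whether the members differed apart from these markers was not tested. In the lactating pair the differences were -0.10 for Lao1, 0.02 for Sftpd and -0.53 for Lpo. Pglyrp1 stood at -3.02 there, an 8.55-fold lower signal in the mutant. At least 2-fold lower in the mutant were 1.18% of tested genes in virgin, 0.887% in pregnant and 2.74% in lactating mice, and at least 2-fold higher 1.44%, 1.04% and 3.53%. With 1 mouse per genotype in a stage these differences have no replicate check.

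**Figure D3:**
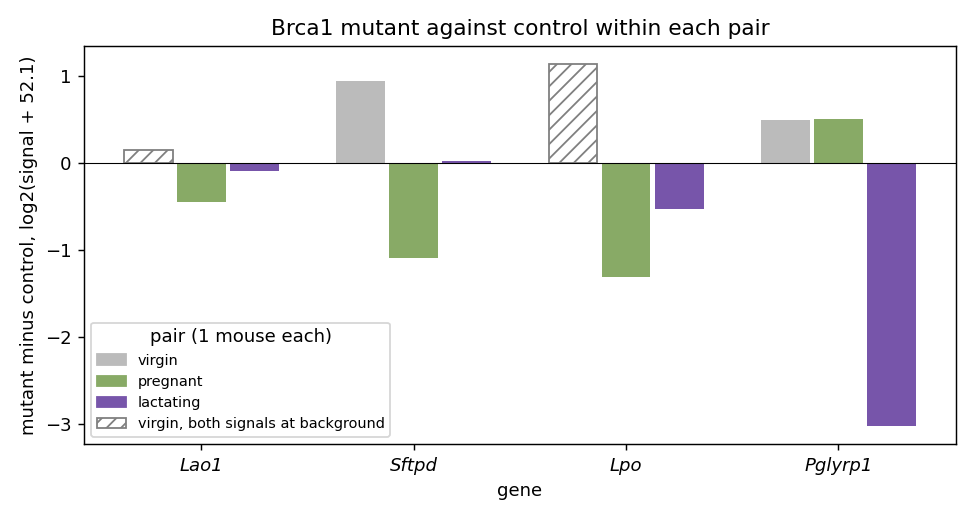
Mutant minus control in log2(signal + 52.1) for the 4 genes above the filter in the virgin, pregnant and lactating pairs, as 1 bar per pair of mice, with no error because each bar is a single pair. Hatched bars (Lao1 and Lpo, virgin) compare signals at background; in the other pairs both genes point down, and the longest bar is Pglyrp1 in the lactating pair at -3.02.

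Because Lao1 makes hydrogen peroxide and Lpo consumes it, the other suppliers of that reaction were read from a list of 22 genes for peroxide sources and thiocyanate supply, of which 14 were tested. From virgin to pregnant glands 4 rose and 1 fell, and their median log2 ratio was 0.31 against -0.06 over all tested genes. From pregnant to lactating glands 3 rose and 2 fell, with a median of 0.00 against -0.04 over all tested genes. After median centring 3 rose and 2 fell in the first step and 2 rose and 4 fell in the second. After quantile normalization 3 rose and 1 fell in the first step and 5 rose and 3 fell in the second, so the balance of the second step turned with scaling. Over all genes 14.7% were called in the first step (8.26% lower) and 31.7% in the second (16.8% lower). Xdh, the xanthine oxidoreductase of the milk fat globule membrane, read 3184 and 2492 in the virgin, 14013 and 8834 in the pregnant and 20247 and 12164 in the lactating glands, control first. It rose by 1.96 from virgin to pregnant (limma adjusted p = 0.00232), with a difference of 0.49 after that (0.0904). Qsox1, a sulfhydryl oxidase that releases hydrogen peroxide, rose in both steps, by 1.98 (limma adjusted p = 0.00419) and 1.33 (0.00917), from 407.8 and 534.3 in the virgin to 5677 and 4528 in the lactating glands, control first. Duoxa1, which matures the dual oxidase, rose by 1.70 in the first step (limma adjusted p = 0.00523), and the oxidase Duox1 rose in both, at least 1.87-fold from virgin signals at background (limma adjusted p = 0.0354) and then by 0.97 (0.0219). Both Duox1 calls were lost after median centring (0.81 and 0.56), and the first also after quantile normalization (limma adjusted p = 0.0919). Il4i1, another L-amino acid oxidase, read 100.7 to 142.8 in the virgin and pregnant arrays, within background, and 630.2 and 964.8 in the lactating glands, control first. It was at least 2.99-fold higher in lactating than in pregnant glands (limma adjusted p = 0.00331). That p rests on pregnant signals at background, and Il4i1 passed the filter only through the lactating arrays. The iodide and thiocyanate carrier Slc5a5 read 205.9 to 340.1 in the virgin and pregnant and 466.3 and 514.1 in the lactating glands. It was not called in either single step (limma adjusted p = 0.427 and 0.119), but was from virgin to lactating glands (0.91, 0.0198). There 1 virgin signal was at background, and 23.7% of tested genes were called higher. Superoxide dismutase 1 (Sod1) fell in both steps, by 1.02 and 0.98 on the log2 scale (limma adjusted p = 0.0193 and 0.0133).

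Among 10 peroxide scavengers, 7 were tested. None was called from virgin to pregnant glands in the limma fit, and 1 rose and 3 fell from pregnant to lactating glands, where 14.9% of all genes were called higher and 16.8% lower. The balance turned with scaling, at 2 up and 1 down after quantile normalization and 0 up and 4 down after median centring. Prdx4, the peroxiredoxin of the secretory pathway, rose by 0.99 (limma adjusted p = 0.0247; 0.58 and not called after median centring, adjusted p = 0.112). Gpx4 fell by 0.82 (limma adjusted p = 0.0215).

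No rise with Lpo could be measured for its relatives. Myeloperoxidase (Mpo), whose gene is next to Lpo on chromosome 11, read 84.4 to 125.1 in the virgin and pregnant glands. It read 218.2 and 216.5 in the lactating glands, control first. Eosinophil peroxidase (Epx), 2 genes away on the other side, read 11.7 to 66.9 and then 173.3 and 141.6. Both genes read highest in lactating glands, but all these signals were within background, so no difference is read from them. Pxdn, a peroxidase of the basement membrane, fell by 1.03 from pregnant to lactating glands (limma adjusted p = 0.00765).

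Of 12 other collectins and soluble lectins, 6 stayed at background on every array, the others exceeded it on at least 1 array, and 4 were tested. In those 4 none rose and 1 fell in the first step, and none rose and 2 fell in the second. Over all genes 8.26% were called lower in the first step and 16.8% in the second. The scavenger receptor collectin Colec12 fell at least 1.66-fold, to background (limma adjusted p = 0.00649), and the galactoside-binding lectin Lgals3 by 1.92 on the log2 scale (0.0173) from pregnant to lactating glands, and the ficolin Fcna fell by 1.23 from virgin to pregnant glands (0.0126). The lung surfactant genes Sftpa1 and Sftpc read at most 117.9 and 258.6, within background, on all arrays. Sftpb, another surfactant protein gene, was at 68.0 to 125.8 in the virgin and pregnant arrays and 1037 and 506.9 in the lactating glands, control first. It was at least 2.78-fold higher in lactating than in pregnant glands (limma adjusted p = 0.00634). Here too the p rests on signals at background, and the gene passed the filter only through the lactating arrays. Slc34a2, a phosphate carrier of lung and lactating gland, rose at least 5.44-fold in the first step, from 1 virgin signal at background (limma adjusted p = 0.0028), and by 3.28 on the log2 scale in the second (0.000811).

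For Pglyrp1 and Camp, markers of neutrophils were read beside the members. Of 24 markers, 19 had a probe set, 6 of those stayed at background on every array, and 9 were tested. None rose and 2 fell from virgin to pregnant glands, while 1 rose and 2 fell from pregnant to lactating glands. Their median log2 ratio was -0.865 in the first step and 0.662 in the second. The latter was 0.316 after quantile normalization and 0.25 after median centring. Over all genes 8.26% were called lower in the first step, and 14.9% higher and 16.8% lower in the second. Elane, Prtn3 and Ctsg, serine proteases of neutrophil granules, were named as defining markers and not by the naming rule. Elane read 20.4 to 103.1 in the virgin and pregnant glands and 344.5 and 259.8 in the lactating glands, control first. Of these, the lactating control alone exceeded background. Prtn3 and Ctsg read 22.6 to 91.6 and 11.7 to 76.0, within background. S100a8 and S100a9 were highest in the virgin arrays, at 461.8 and 723.4 and at 460.9 and 523.3 in control and mutant, and were not called from virgin to pregnant glands (limma adjusted p = 0.0553 and 0.138). They are the 2 markers called lower from pregnant to lactating glands (limma adjusted p = 0.0215 and 0.016), but all of these signals except 1 (S100a9 in the pregnant mutant, 320.9) were at background, so no fold is given. The granule gene Ngp was at least 1.92-fold higher in that step, from background (limma adjusted p = 0.0176; not called after median centring, adjusted p = 0.0611). The summed signal of the 17 markers other than Ltf and Lcn2, which gland epithelium also makes, was 3169 and 3734 in the virgin, 1916 and 1836 in the pregnant and 3377 and 3298 in the lactating glands, control first. That sum was chosen after the values were seen, many of its genes are at background, and its part in the Pglyrp1 values was not tested.

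Of 12 genes for peptidoglycan and lipopolysaccharide sensing, 7 were tested, of which 2 rose in the first step and 1 in the second and none fell; after median centring 1 fell in the second. The second count is near the background of 14.9% of all genes called higher, and the first stands against 6.45%. Tlr2 rose by 1.74 (limma adjusted p = 0.0053) and the Tlr4 partner Ly96 by 1.27 (0.0121) from virgin to pregnant glands. Cd14 rose by 1.85 from pregnant to lactating glands (limma adjusted p = 0.0121), with 1922 in the pregnant mutant against 6448 in the pregnant control. Pglyrp2, which cleaves peptidoglycan, read 88.8 and 115.5 in the virgin and 3.8 to 7.6 in the other arrays, all within background.

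Among 20 other antimicrobial milk and mucosal proteins, 16 were tested, and 5 rose and 2 fell from virgin to pregnant glands. In the next step 3 rose and 6 fell, S100a8 and S100a9 among the latter. Over all genes 6.45% were called higher and 8.26% lower in the first step, and 14.9% and 16.8% in the second. After median centring these counts were 4 and 4 in the first step and 2 and 6 in the second. Pigr, which carries antibodies into milk, rose by 3.50 (limma adjusted p = 0.000855) and then by 1.25 (0.00937), and the membrane mucin Muc1 rose at least 5.01-fold, from 1 virgin signal at background (0.005), and then by 1.68 (0.0096). The macrophage lysozyme Lyz2 fell in both steps, with log2 differences of -1.07 (limma adjusted p = 0.0109) and -2.68 (0.000774). Haptoglobin (Hp) fell too, at -1.16 (limma adjusted p = 0.0164) and then at least 8.37-fold, to 261.4 and 260.0 at the background level (0.000859), and the ribonuclease Rnase4 fell in the second step, at -2.58 (0.00122). Lactoferrin (Ltf) read 758.3 and 1217 in the virgin, 9804 and 1861 in the pregnant and 12731 and 19818 in the lactating glands, control first. It passed in neither single step (limma adjusted p = 0.0702 and 0.0632), but was called higher in lactating than in virgin glands (3.97, 0.0022). Lipocalin 2 (Lcn2), which binds bacterial iron carriers, read 6510 and 7945 in the virgin, 26630 and 11284 in the pregnant and 28606 and 41799 in the lactating glands. It passed in neither single step either (limma adjusted p = 0.0715 and 0.0926), but was called from virgin to lactating glands (2.26, 0.00285). In that comparison 23.7% of tested genes were called higher.

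**Figure D4:**
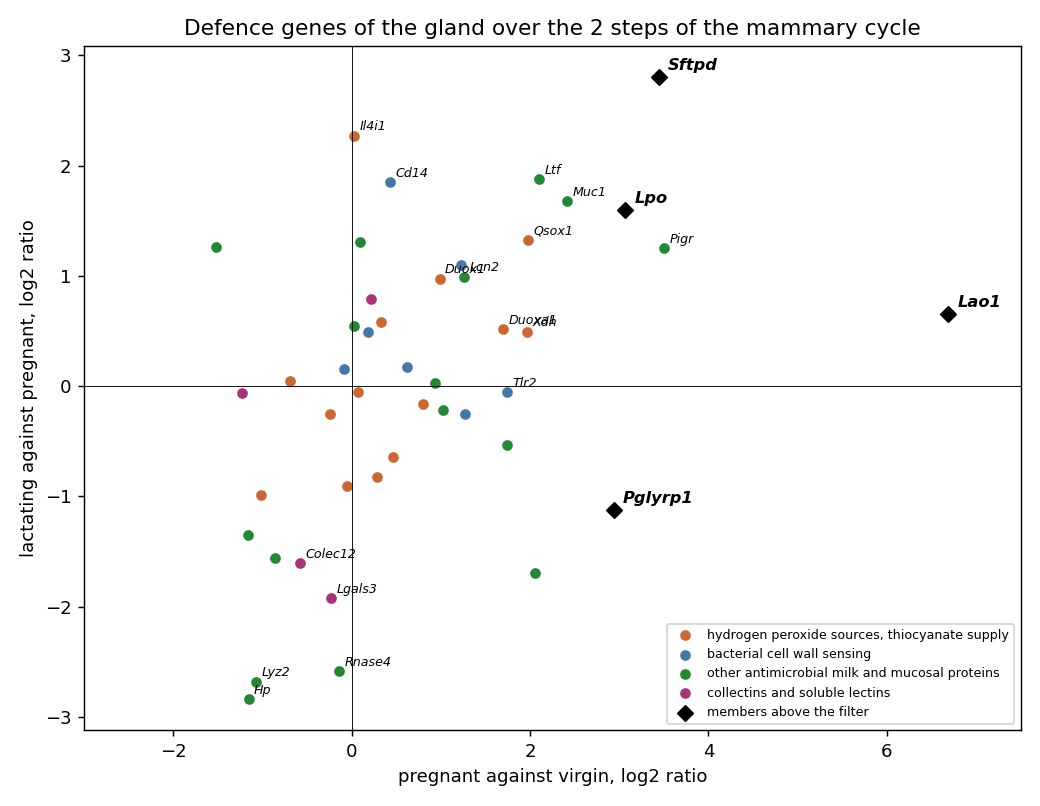
Log2 ratio of pregnant to virgin (horizontal axis) against log2 ratio of lactating to pregnant (vertical axis) for tested defence genes, 1 point per gene coloured by list, with the 4 members above the filter as black diamonds. Lao1 stands far right at 6.69, Sftpd at the top at 2.80, and Lyz2 and Hp at the bottom left with -2.68 and -2.84; both axes share the pregnant arrays.

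Markers of other cells moved with stage, and their part in the members' differences was not tested. The counts below stand beside 6.45% of all genes called higher and 8.26% lower in the first step, and 14.9% and 16.8% in the second. Of 14 tested luminal secretory markers, 8 rose from virgin to pregnant and 4 from pregnant to lactating glands and none fell; after median centring 6 and 2 rose. Their summed signal was 153325 and 187828 in the virgin, 357280 and 265476 in the pregnant and 392844 and 443463 in the lactating glands, control first. The general luminal markers Krt18 and Epcam were not called in the first step, with log2 differences of -0.45 and 0.03 (limma adjusted p = 0.199 and 0.956). All 6 skeletal muscle markers rose and all 7 tested lymphocyte markers fell from virgin to pregnant glands. Summed signals ranged from 10462 to 31375 in virgin, 115931 to 125651 in pregnant and 61189 to 62838 in lactating glands for muscle. For lymphocytes they were 5948 to 8204, 921.2 to 1245 and 910.0 to 979.1. Of 8 macrophage markers, 7 fell from pregnant to lactating glands. Of 6 tested adipocyte markers, 1 fell in the first step and 3 in the second, and none rose. Their summed signal was 107031 and 115266 in virgin, 87196 and 74442 in pregnant and 49687 and 46700 in lactating mice, control before mutant, and the adipokine Adipoq went from 30648 and 35013 to 6941 and 5642 between virgin and lactating mice. The salivary genes Smgc and Dcpp1, from a gland that also makes lactoperoxidase, read at most 79.2 and 21.8, within background. They are among the 5 of 9 salivary markers with a probe set that stayed at background on every array. Of the 2 tested, Amy1 fell in both steps (limma adjusted p = 0.00589 and 0.000961), from 8820 and 6139 in virgin glands. Bhlha15 rose at least 3.26-fold from background (limma adjusted p = 0.00826) and then by 1.10 (0.0296), a call lost after median centring. Pip and Bpifa2 exceeded background only in lactating glands, at up to 1170 and 309.7.

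The genes whose signals followed each member most closely are given by a fixed measure. Likeness was Pearson's r of log2 values over the 6 arrays, among tested genes with a log2 range of at least 0.5 of the member's own; 6 arrays in 3 stages make high values common, and r is given as a description. Closest to Lao1 were the milk lipase gene Cel (r = 0.995), the milk fat globule gene Btn1a1 (0.995), the whey acidic protein gene Wap (0.994), the glycine-cleaving Gldc (0.994) and the folate receptor Folr1 (0.994). Closest to Sftpd were Muc1 (0.998), the casein gene Csn1s2b (0.996), Qsox1 (0.996), Tmem102 (0.994) and Tnfrsf11a, the receptor for RANKL (0.994). Closest to Lpo were the collagen gene Col9a1 (0.995), the milk fat globule protein gene Mfge8 (0.992), Qsox1 (0.990), Muc1 (0.990) and Igf2r (0.989). Qsox1 and Muc1 thus stood in both of the latter lists. Closest to Pglyrp1 were Ndufs5 (0.974), the muscle gene Lmod2 (0.967), Rgs16 (0.952), Naaladl2 (0.951) and the mucin Muc4 (0.948). Rgs16, a regulator of G protein signalling, read 3361 and 3611 in the pregnant and 2537 and 560.1 in the lactating glands, control first. Among the members themselves r was 0.986 for Sftpd and Lpo, 0.941 for Lao1 and Lpo, 0.920 for Lao1 and Sftpd, and 0.518 to 0.718 for Pglyrp1 with these 3. No likeness is given for Camp, whose signals were at background.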

How the data were processed

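Total RNA of mammary glands of 6 mice was labelled with biotin and hybridised to a mouse expression array, 1 mouse per array, per the labels. The authors deposited 1 MAS5 signal intensity per probe set, per the submitters' processing notes; the MAS5 version, detection calls and genome build are not given in the sources used here. Each array had a 2%-trimmed mean of 500 in the deposited values.

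Signals were turned into log2(signal + 52.1), the added value being the lower quartile of all signals, so fold changes of dim genes are understated. Of 45101 probe sets, 34945 had 1 symbol, 932 several and 9160 none. For genes with several probe sets the brightest on average was kept, with _x_at types used only in the absence of another. Testing was limited to the 11495 genes whose mean log2 value reached 7.715, the median over probe sets. A limma model (limma 3.58.1, R 4.3.3, eBayes with trend) held stage and genotype, with 2 residual degrees of freedom, and p-values were adjusted by Benjamini-Hochberg over all tested genes and called at 0.05. The labels pair mice by stage alone. Deviations from the mean of each genotype correlated within pairs at r = 0.857 (virgin), 0.584 (pregnant) and 0.819 (lactating) across genes. These deviations hold the stage differences themselves, so the values do not show that the mice were matched in any other way. Each mouse is 1 sample, and the number of arrays limits the precision.

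The members and lists were chosen with earlier results of these data known. The naming rule took the members, up to 4 genes per list with the smallest p in each step, and 12 fixed genes, some left out for brevity, with defining markers and relatives of the members added after their values were seen; for each member it took the 5 genes with the highest r. The alternatives were 2 other scalings, pseudocounts of 14.9 and 168.7, no filter or one at the 75th percentile, the mean of probe sets, no variance trend, a fit lacking the stage block or the genotype term, and the omission of arrays. When tested on simulated data (11495 genes, 200 of them altered), the fit called 8% of those altered by 1 on the log2 scale, 80% by 2 and 92% by 3 in lactating against pregnant, with 4 false calls, and 10%, 86% and 100% in pregnant against virgin, with 14 false calls.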

Additional observations from a re-analysis of the deposited data

Results flagged for a closer look

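Pglyrp1 moved in opposite directions from pregnant to lactating glands in the control and mutant mice. The log2 ratio was 0.64 in the controls and -2.89 in the mutants. Each ratio compares 1 mouse with 1 mouse, the pregnant and lactating mice of a class differ in genotype, and the difference between the ratios was not tested.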

How the results depend on the processing

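The virgin to lactating rise of Lpo kept its direction and call in all 14 alternatives (3.54 to 5.70). With no array left out its limma adjusted p was 0.000134 to 0.00111. The virgin to pregnant rise kept both in 14 of 15, and with arrays left out in turn that rise was 2.04 to 4.10. The fitted sizes and p of both rises rest on virgin signals at background. The alternatives use the same signals, so the kept calls are no further check. At the 75th percentile filter Lpo was no longer tested. Its pregnant to lactating rise was not called with median centring (1.18), the lower pseudocount (1.65, limma adjusted p = 0.109), no filter, the mean of probe sets or no variance trend (1.59 each), and was 0.79 to 2.40 with arrays left out. The Pglyrp1 rise from virgin to pregnant was not called with quantile normalization (2.87), no filter, the mean of probe sets or no variance trend (2.94 each), and was 2.05 to 3.82 with arrays left out. With arrays left out Pglyrp1 was -2.89 to 0.64 from pregnant to lactating and 0.048 to 3.58 from virgin to lactating. The cause was not tested.

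For mutant against control, no member was called under any alternative (limma adjusted p of at least 0.884 for the 4 genes), including the fit with no replicate block, where Pglyrp1 was at -0.67. Signs changed with an array left out for Lao1 (-0.27 to 0.03), Sftpd (-0.54 to 0.48), Lpo (-0.92 to 0.30) and Pglyrp1 (-1.26 to 0.50), the positive values of Lao1 and Lpo including the virgin pair at background. The block of stages is the only pairing in the labels. Without the lactating arrays, 2 genes were called (0 to 2 with 1 array left out).

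Counts over all genes moved by over 1.5 times in these cases. From virgin to pregnant there were 1690 calls, 1113 after quantile normalization, 2759 without the lactating arrays and 304 to 2764 with 1 array left out. From pregnant to lactating there were 3641, 2139 at the stricter filter and 1029 to 3511 with 1 array left out. From virgin to lactating there were 5982, 3620 at the stricter filter and 3408 to 5636 with 1 array left out. With median centring the typical tested gene shifted from -0.06 to -0.24 (median log2 ratio) in the first step and from -0.04 to -0.45 in the second, and the share of higher calls from 43.8% to 26.4% and from 47.0% to 16.6%. The Lao1 difference from pregnant to lactating was then 0.24, and 0.43 after quantile normalization.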
